A study of Mus musculus with 6 samples.

Results

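The AP-1 and immediate early genes described here are 10 protein-coding mouse genes chosen by name, of 31055 features counted: Fos, Fosb, Jun, Junb, Jund, Egr1, Atf3, Fosl1, Fosl2 and Ier2. They were measured by droplet single-cell RNA-seq in the mammary gland of female C3TAG mice, a strain that carries the SV40 large T antigen under the C3(1) promoter and develops mammary tumors. Each of 3 disease states had 2 libraries: Prepuberty, the whole gland at 5 weeks; DCIS, the whole gland with ductal carcinoma in situ at 14 weeks; and Tumor, a palpable tumor taken after 18 weeks. Every group carried the transgene, so no library came from a gland without it. The study speaks of 2 specimens per time point and of distinct tumors in one place and of technical replicates in another, and the labels do not say whether the libraries of a state came from separate mice, so that the p-values measure the spread between these libraries, which may be technical.

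AP-1 is a dimer of bZIP proteins, made of a Jun protein with a Fos protein or of Jun proteins alone, that binds short DNA elements in enhancers and promoters. Fos, Fosb, Jun, Junb, Egr1, Atf3 and Ier2 are immediate early genes, whose transcripts appear within minutes of a growth factor, of mechanical stress or of tissue dissociation and soon decay. Fosl1 (FRA-1) and Fosl2 (FRA-2) encode Fos-related antigens that follow more slowly and can stay on under sustained ERK signaling. In the mammary gland AP-1 is studied in ductal growth and in the invasive behaviour of tumor cells. Below, Fosl1 and Fosl2 are called the FRA genes and the other 8 the rapid genes.

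After filters 21505 of 23835 barcodes were kept, 2545 to 4298 per library, with a median of 6553 to 13628 UMIs (unique molecular identifiers, each standing for a captured transcript) per cell. Pairs of libraries shared 9 to 39 barcodes. Cells were clustered with the 10 genes kept out of the variable genes, and clusters were named by marker genes. In 5 classes (epithelial-like, myoepithelial-like, fibroblast-like, endothelial-like and macrophage-like) every library held at least 32 cells, and UMIs were summed per class and library. Levels are given as scaled CPM, the CPM of a gene (its UMIs relative to all UMIs of the class in that library) after TMM scaling. Without TMM scaling the median of all genes moved by 0.36 to 0.70 on the log2 scale between Tumor and DCIS, so that every change is relative to the TMM scale. The study's methods, but not the labels, give a different dissociation for the tumors, which cannot be told apart from the state, and a newer 10x chemistry for Tumor 2 alone, which cannot be told apart from a difference between Tumor 2 and Tumor 1. All 10 genes were detected, in 23.1% (Fosb) to 82.3% (Junb) of the kept cells.

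Fosl1 was high in endothelial-like and fibroblast-like cells of the glands and low in endothelial-like cells of the tumors, most of which lay in other subclusters than the gland cells with high Fosl1. In endothelial-like cells its level was 96.1 and 111 scaled CPM in the Prepuberty libraries, 70.3 and 121 in the DCIS libraries, and 5.16 and 12.3 in the Tumor libraries. The Tumor libraries lay below the other 4 with no overlap, and each Tumor value rests on 4 UMIs, against 158 to 865 in the gland libraries. Fosl1 fell by 3.67 on the log2 scale between DCIS and Tumor (SE 0.49, 2 libraries per state, adjusted p = 0.0036 by edgeR's quasi-likelihood test with Benjamini-Hochberg adjustment over all genes). Against Prepuberty it fell by 3.78 (SE 0.48, adjusted p = 0.0027), where the Tumor libraries are the same. Each call was kept in all 19 alternative settings that change the sums or the test of this class.

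The endothelial markers stayed at gland levels in the tumor cells counted here. The 6 endothelial markers summed to 4207 to 5474 scaled CPM over the 6 libraries, and none of them was at 0 in any state. The Tumor libraries held 77 and 32 endothelial-like cells, against 351 to 701 in the gland libraries. Beside this, the 10 listed heat shock genes, which report stress and cell handling, summed in endothelial-like cells to 16562 and 19772 scaled CPM in Prepuberty, 33815 and 29975 in DCIS and 6753 and 4078 in Tumor. Of these 10 genes 9 fell between DCIS and Tumor (median log2 change -2.24, against -0.02 over all genes), and their part in the fall of Fosl1 was not tested.

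The endothelial-like class joins cluster 5, led by the capillary genes Gpihbp1 and Cldn5, and cluster 11, led by the venous genes Ackr1 and Selp. Unscaled Fosl1 CPM in cluster 5 was 144 and 153 in Prepuberty, 118 and 174 in DCIS, and 5.60 and 15.6 in Tumor. In cluster 11 it was 17.0 and 40.5 in Prepuberty and 8.75 and 25.9 in DCIS, below cluster 5 in each of these libraries. Cluster 11 held 7 and 4 tumor cells and gave no tumor value. Tested in cluster 5 alone, a choice added after seeing the data, Fosl1 fell by 4.30 between DCIS and Tumor (adjusted p = 0.00074).

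Cluster 5 was not 1 like population in glands and tumors. Clustered without integration, 65 and 15 tumor cells formed an endothelial-like cluster of their own, led by Igfbp3 and Kcne3, with no gland cell. At the higher resolution of 1.2, which integrates the libraries, a cluster led by Esm1 and Igfbp3 held 64 and 16 tumor cells and 49 to 137 cells of each gland library, while a cluster led by Cyp1a1 and Cldn5 held 5 and 12 tumor cells and 113 to 314 of each gland library. These levels were looked up after seeing the data and carry no test. In the Cyp1a1 cluster Fosl1 was at 201 to 251 unscaled CPM in the 4 gland libraries and at 71.0 in Tumor 2, from 4 UMIs. In the Esm1 cluster it was at 33.2 and 66.1 in Prepuberty, 13.5 and 49.9 in DCIS, and 4.41 in Tumor 1, from 3 UMIs, and the 0 UMIs of Tumor 2 allow up to 14.9. In the Esm1 cluster Tumor 1 lay below all gland libraries, and the limit of Tumor 2 reached DCIS 1. The make-up of subclusters thus differed between glands and tumors, and its part in the fall over the whole class was not tested.

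**Figure D1:**
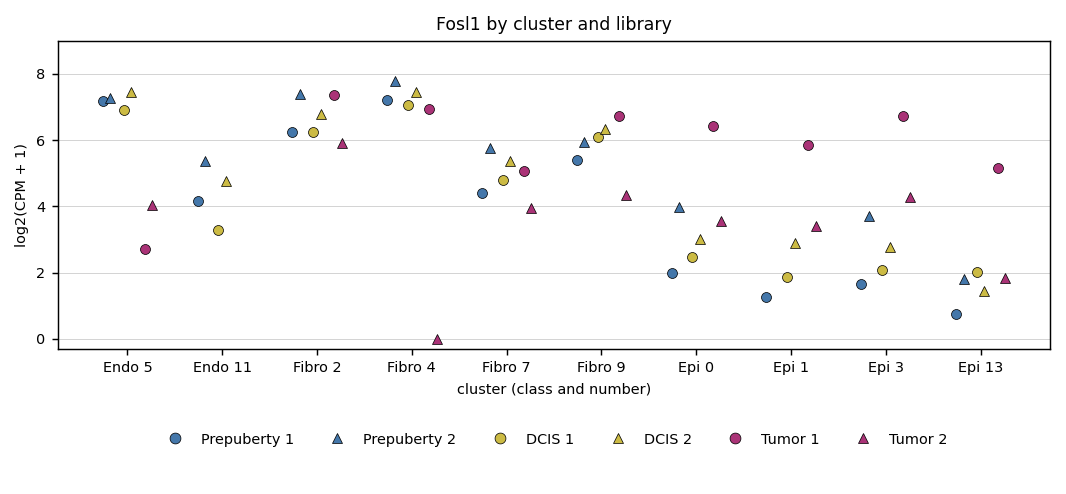
Fosl1 level as log2(CPM + 1), unscaled, in 10 clusters (x axis: class and cluster number) and 6 libraries. Colours mark the state, and circles and triangles the first and second library of a state. Clusters with under 10 cells in a library have no point there. The Tumor points of endothelial cluster 5 lie far below its gland points, and the Tumor 1 points of the epithelial clusters lie above all other epithelial points.

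In epithelial-like cells the Fosl1 estimate had the opposite direction, and its size rested on Tumor 1. Its level was 2.00 and 9.26 scaled CPM in Prepuberty, 3.69 and 5.86 in DCIS, 76.6 in Tumor 1 and 8.84 in Tumor 2. Tumor 2 lay above both DCIS libraries but within the Prepuberty range, and Tumor 1 stood far above all others. The log2 difference between Tumor and DCIS was 3.16 (SE 1.03, adjusted p = 0.119) and did not pass the test. Without Tumor 1 it was 0.89, and without Tumor 2 it was 3.98 (adjusted p = 0.0122). In the epithelial-like clusters 0, 1, 3 and 13, Fosl1 reached 85.3, 57.3, 105 and 34.3 unscaled CPM in Tumor 1 and 10.8, 9.61, 18.4 and 2.58 in Tumor 2.

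Shares of cells showed the same separation of Tumor 1. With every cell thinned to 2000 UMIs, 11.99% of epithelial-like cells of Tumor 1 held a Fosl1 UMI (exact 95% binomial interval 10.8 to 13.3%), against 1.56% in Tumor 2 (0.970 to 2.38%) and 0.407 to 1.15% in the 4 gland libraries. Unthinned, the shares were 45.5% and 15.2% in the tumors. T cell-like cells, which serve as a background for free RNA, held no Fosl1 UMI in 77 thinned cells of Tumor 1, which allows a share of up to 3.90%. Unthinned, 1.14% of the T cell-like cells of Tumor 1 and none in Tumor 2 held one, in Tumor 1 at a median depth of 1867 UMIs against 13123 in the epithelial-like cells of that library. In endothelial-like cells the thinned share was 10.3 to 20.8% in the 4 gland libraries, 0 of 75 cells in Tumor 1 (allowing up to 4%) and 0 of 20 in Tumor 2 (allowing up to 15%). These intervals and limits cover counting error only. The median depth of endothelial-like cells was 7319 UMIs in Tumor 1 and 4077 in Tumor 2.

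In fibroblast-like cells Fosl1 was at 76.2 and 153 scaled CPM in Prepuberty, 91.1 and 141 in DCIS, 81.5 in Tumor 1 and 24.1 in Tumor 2. The Tumor libraries lay below the DCIS libraries without overlap, but Tumor 1 lay within the Prepuberty range. The log2 difference between Tumor and DCIS was -1.14 (SE 0.62, adjusted p = 0.248). Without Tumor 1 it was -2.31 (adjusted p = 0.0401). A T antigen UMI was held by 26.5% of the fibroblast-like cells in Tumor 1 and by 45.2% in Tumor 2, against at most 0.524% in the glands. Without the cells that held one the log2 difference was -1.17 (adjusted p = 0.203). In cluster 4, led by Pi16 and Dpt, unscaled Fosl1 was 131 and 173 CPM in DCIS and 121 in Tumor 1, and the 16 cells of Tumor 2 held no Fosl1 UMI. Fosl1 was scarce in macrophage-like cells (0.896 to 9.08 scaled CPM) and in myoepithelial-like cells (1.03 to 18.6), where it did not pass the filter on low counts and was not tested between states.

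Fosl2, the other FRA gene, was highest in endothelial-like cells and lower in the tumors there. Its endothelial-like level was 157 and 150.2 scaled CPM in Prepuberty, 255 and 295 in DCIS, and 120.0 and 46.1 in Tumor. The 3 states did not overlap, with DCIS highest. Fosl2 fell by 1.65 between DCIS and Tumor (SE 0.38, adjusted p = 0.0255). The call was lost without DCIS 1 (adjusted p = 0.0816) and without DCIS 2 (adjusted p = 0.105), with the direction kept. Against Prepuberty the log2 difference was -0.81 (SE 0.38, adjusted p = 0.2004).

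In myoepithelial-like cells Fosl2 was at 31.3 and 21.5 scaled CPM in Prepuberty, 45.1 and 62.5 in DCIS, and 13.9 and 22.7 in Tumor. The Tumor and DCIS libraries did not overlap. Fosl2 fell by 1.495 between them (SE 0.45, adjusted p = 0.0432), a call kept in 5 of 16 alternative settings that change the sums or the test of the class. It was lost, among others, without TMM scaling (log2 difference -0.85, adjusted p = 0.227) and without any library but Tumor 2 (adjusted p = 0.0505 to 0.226). The 2 Tumor libraries held 32 and 49 cells of this class, of which 46.9% and 44.9% held a T antigen UMI against at most 0.535% in the glands. Clustered without integration, the myoepithelial-like cluster held no tumor cell, so that the tumor values of this class exist only with integration. Its 7 myoepithelial markers summed to 6221 to 18956 scaled CPM in the gland libraries and to 2216 and 3104 in the tumors, where 1 of the 7 was at 0, while epithelial markers summed to 4917 and 1639 in the tumors against 640 to 1859 in the glands, and their part in the change was not tested. In epithelial-like cells Fosl2 ran from 48.7 to 77.6 scaled CPM in the glands and was 38.9 and 27.8 in the tumors (log2 difference to DCIS -0.83, SE 0.33, adjusted p = 0.175). Fibroblast-like cells gave 58.3 and 26.3 in Prepuberty, 80.9 and 117 in DCIS, and 52.4 and 42.9 in Tumor, again with DCIS highest and no test passed (log2 difference of Tumor to DCIS -1.05, SE 0.45, adjusted p = 0.154).

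In macrophage-like cells Fosl2 was at 21.3 and 2.00 scaled CPM in Prepuberty, 60.5 and 97.3 in DCIS, and 59.1 and 72.1 in Tumor. The DCIS and Tumor libraries overlapped, and both lay above Prepuberty. Fosl2 rose by 2.62 between Prepuberty and Tumor (SE 0.66, adjusted p = 0.0430). Without Prepuberty 2, where it rests on 1 UMI, the log2 difference was 1.63 (adjusted p = 0.189), and the call, kept in 10 of 17 settings, was also lost, among others, without Tumor 2, DCIS 1 or DCIS 2 (adjusted p = 0.0727, 0.0646 and 0.0847).

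**Figure D2:**
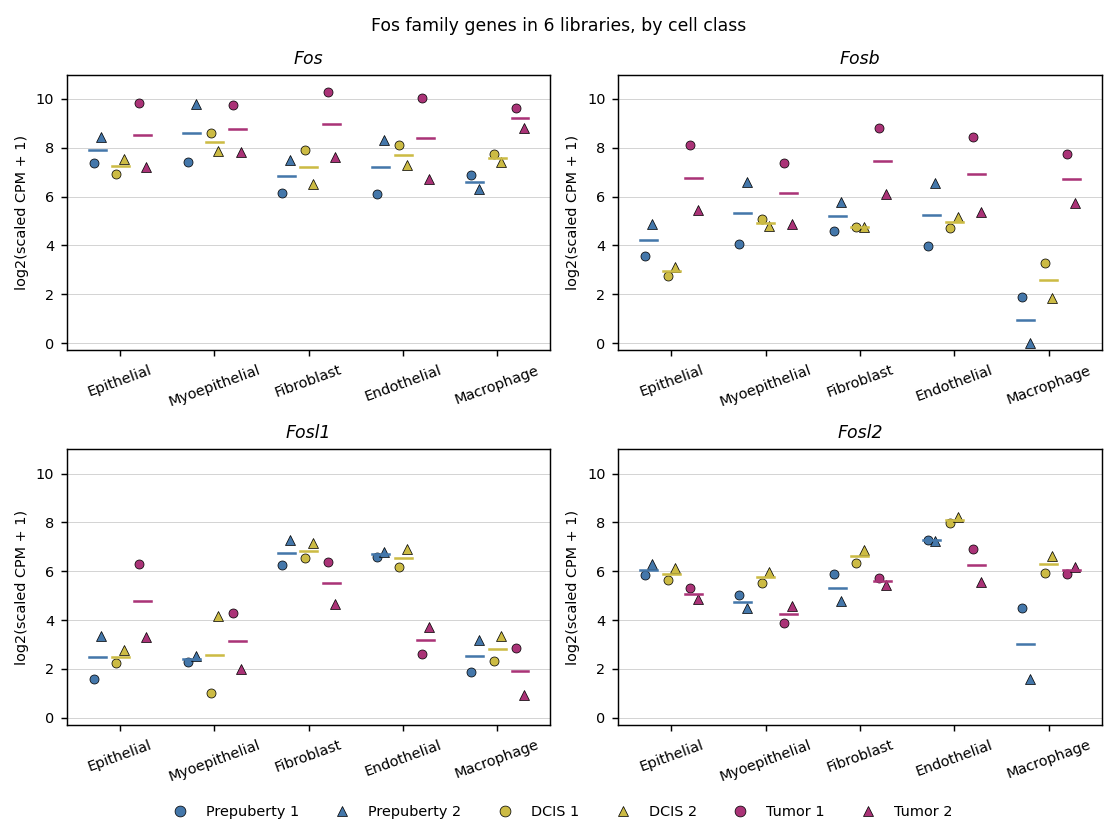
Levels of Fos, Fosb, Fosl1 and Fosl2 as log2(scaled CPM + 1) in 5 cell classes and 6 libraries. Each point is 1 library, colours mark the state, shapes the library number, and short lines the mean of the 2 libraries. Fosl1 in endothelial-like cells drops to 5.16 and 12.3 scaled CPM in the tumors, while Fosb is at its highest in Tumor 1 in every class.

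Of the rapid genes, Fosb and Fos carried the changes that passed the test between DCIS and Tumor. The letters of their promoters are shown because Fos, Fosb and Junb share an element there. RefSeq promoters (GRCm38.p6) were matched for 7 of the 10 genes, without Egr1, Fosl1 and Ier2, and the 250 bases before the RefSeq start were searched on both strands. These starts need not be those of the gene model used for counting, since the window of Fosl2 lies within exons of the gene, that of Atf3 within the gene, and that of Jund ends well before it. TGACG, the core of a cAMP response element, was found in the windows of Fos, Fosb, Junb and Atf3. It occurs in 17.9% of 27025 promoter windows of the same length. The full element TGACGTCA (1.62% of windows), the AP-1 site TGANTCA (6.87%) and the CArG box bound by serum response factor (1.399%) had no match in the windows of the 7 genes. Sites farther from the start than 250 bases were not searched, so that a missing match does not mean that a gene lacks the site. In the 30-base stretches below, from chr12:85473812-85473841 on the plus strand, chr7:19310088-19310117 on the minus strand and chr8:84978837-84978866 on the minus strand, capitals mark TGACG. It starts 66, 60 and 106 bases before the RefSeq start, and Fos has a further match 129 bases before it.
Fos: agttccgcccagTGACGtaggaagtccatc
Fosb: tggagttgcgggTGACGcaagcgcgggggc
Junb: gcttcctgacagTGACGcgagccgcctcct
A match describes letters, not binding.

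Fosb, a Fos protein with a transactivation domain, was at 10.8 and 28.2 scaled CPM in Prepuberty, 5.80 and 7.70 in DCIS, and 277 and 42.2 in Tumor in epithelial-like cells. Both tumors lay above the 4 gland libraries. Fosb rose by 4.56 between DCIS and Tumor (SE 0.92, adjusted p = 0.0496), a call at the edge of the threshold that was kept in 9 of 18 alternative settings. It was lost, among others, without either DCIS library (adjusted p = 0.256 and 0.326) or either Prepuberty library (0.0979 and 0.0977). In macrophage-like cells Fosb was at 2.66 and 0 scaled CPM in Prepuberty, 8.76 and 2.59 in DCIS, and 212 and 52.0 in Tumor. It rose by 4.41 between DCIS and Tumor (SE 0.76, adjusted p = 0.0111), kept in 15 of 17 settings and lost without DCIS 1 (adjusted p = 0.0576) or DCIS 2 (0.117). Without Tumor 1 the macrophage-like log2 difference was 3.03 (adjusted p = 0.0102) and the epithelial-like one 2.65 (adjusted p = 0.0231), so that both passed on Tumor 2 alone. T cell-like cells gave no Fosb UMI in the 3 gland libraries with a value and 25.6 and 28.5 unscaled CPM in the tumors, where Tumor 2 stood at 55.4 in epithelial-like and 76.7 in macrophage-like cells. Thinned to 2000 UMIs, 8.04% of the epithelial-like cells of Tumor 2 (exact 95% interval 6.64 to 9.63%) and 7.46% of its T cell-like cells (2.47 to 16.6%) held a Fosb UMI, 2 intervals that overlap. Over all kept cells Fosb was at 286 CPM in Tumor 1 and 61.3 in Tumor 2, and whether the T cell-like values are free RNA was not tested. The epithelial markers summed to 7255 and 3641 scaled CPM in the epithelial-like cells of the tumors, against 8438 to 13804 in the glands, and a T antigen UMI was held by 72.2% and 57.6% of them against 27.8% and 17.9% in DCIS. Clustered without integration, 2 epithelial-like clusters held 1802 and 1526 cells of Tumor 1 and at most 10 of any other library, and the part of this in the change was not tested.

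In fibroblast-like cells Fosb was at 23.3 and 53.7 scaled CPM in Prepuberty, 25.8 and 25.8 in DCIS, 447 in Tumor 1 and 68.8 in Tumor 2. Fosb rose by 3.32 between DCIS and Tumor (SE 0.85, adjusted p = 0.0468). Tumor 1 set the size of this change, and without it the log2 difference was 1.36 (adjusted p = 0.113). The call, kept in 11 of 19 settings, was also lost, among others, without either DCIS library (adjusted p = 0.237 and 0.243) or either Prepuberty library (0.0754 and 0.0747). The 7 myoepithelial markers summed to 1823 scaled CPM in the fibroblast-like cells of Tumor 1, against 12.7 to 294 in the other 5 libraries. Clustered without integration, a fibroblast-like cluster held 186 cells of Tumor 2 and at most 1 of any other library, and the 3 largest fibroblast-like clusters of the glands held at most 6 cells of a tumor. The part of both in the change was not tested. Endothelial-like cells gave 14.7 and 93.0 in Prepuberty, 25.4 and 34.8 in DCIS, and 351 and 39.9 in Tumor, with a log2 difference of Tumor to DCIS of 2.78 (SE 0.96, adjusted p = 0.0872). Myoepithelial-like cells gave 15.7 and 95.6, 32.8 and 26.8, and 167 and 28.7 in the same order, where Tumor 2 lay within the DCIS range (log2 difference 1.71, SE 0.82, adjusted p = 0.164).

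Fos, the founding member of the family, passed the test in macrophage-like cells. It was at 117 and 78.0 scaled CPM in Prepuberty, 211 and 172 in DCIS, and 786 and 447 in Tumor, and the 3 states did not overlap. Fos rose by 1.70 between DCIS and Tumor (SE 0.41, adjusted p = 0.0376), a call kept in 11 of 17 settings and lost without Tumor 1 (log2 difference 1.204, adjusted p = 0.0686), without either DCIS library (0.302 and 0.358), without either Prepuberty library (0.0534 and 0.0501) and with clusters made without integration (0.0537). The macrophage-like class of the tumors also held more neutrophil transcripts, with 5 markers summing to 843 and 3373 scaled CPM in Tumor against 46.7 to 389 in the glands, and their part was not tested. In the other 4 classes the tumors disagreed. Fos was at 906, 857, 1256 and 1055 scaled CPM in the epithelial-like, myoepithelial-like, fibroblast-like and endothelial-like cells of Tumor 1, and at 148, 225, 198 and 104 in those of Tumor 2. The values of Tumor 2 lay within the range of the 4 gland libraries in epithelial-like, myoepithelial-like, fibroblast-like and endothelial-like cells.

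**Figure D3:**
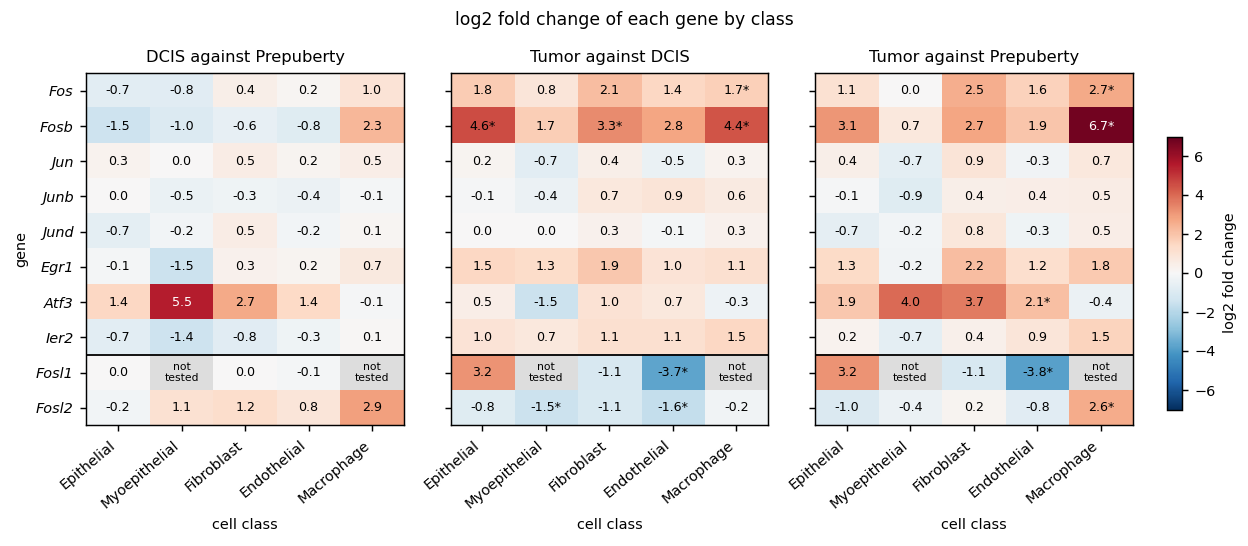
Log2 fold change of the 10 genes (rows) in 5 cell classes (columns) for the 3 comparisons of states. Colour gives the size from -7 to 7, an asterisk marks an adjusted p under 0.05, and grey cells were not tested. The line separates the rapid genes from the FRA genes. Between DCIS and Tumor the 4 calls among rapid genes are increases of Fosb or Fos and the 3 calls among FRA genes are decreases.

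Counted over genes and classes, 7 of 48 member tests passed between DCIS and Tumor, 14.6%, against 10.2% of all gene-by-class tests. The 4 calls among the rapid genes rose and the 3 among the FRA genes fell. In the direction of the estimate, 33 of 40 rapid tests and 1 of 8 FRA tests had a positive log2 change. The Tumor libraries lay above both DCIS libraries in 18 of 40 rapid tests, 45.0%, and below them in 6 of 8 FRA tests, 75.0%, against 30.8% and 29.4% of all tests. Without TMM scaling the counts of positive changes were 37 of 40 and 2 of 8, and the calls were 12 up and 2 down in place of 4 and 3. Without Tumor 1 the rapid genes had a positive change in 20 of 40 tests, and the calls were 2 up and 7 down.

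The tumors thus differed from each other in the rapid genes. Within the Tumor state a rapid gene was higher in Tumor 2 than in Tumor 1 in 4 of 40 gene-by-class pairs, and in 9 of 40 by unscaled CPM. The newer chemistry of Tumor 2 cannot be told apart from this difference. Over the 5 classes the ratio of Tumor 1 to Tumor 2 had a median of 6.11 for Fos (range 1.76 to 10.1), 6.50 for Fosb (4.09 to 8.78), 34.4 for Atf3 (0.879 to 79.9) and 1.35 for Jund (1.02 to 1.89). The Prepuberty libraries were split as well, with Prepuberty 2 above Prepuberty 1 in 34 of 40 pairs. In DCIS the split was even, with DCIS 2 higher in 19 of 40. For the FRA genes DCIS 2 was the higher library in 10 of 10 pairs.

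Atf3, a bZIP protein induced by stress that can repress AP-1 targets, was the member with the largest gap between the tumors. In epithelial-like cells it was at 49.9 and 62.1 scaled CPM in Prepuberty, 128 and 173 in DCIS, 405 in Tumor 1 and 11.8 in Tumor 2. In fibroblast-like cells it was at 8.46 and 4.38, 42.6 and 38.8, 161 and 3.61 in the same order. Tumor 1 was the highest and Tumor 2 the lowest library in each of these classes. Without Tumor 1, Atf3 fell between DCIS and Tumor in 4 classes, with log2 differences of -3.68 in epithelial-like cells (adjusted p = 0.0066), -3.54 in fibroblast-like cells (0.0138), -2.36 in macrophage-like cells (0.0361) and -6.73 in myoepithelial-like cells (0.0015, with 1 UMI in Tumor 2), where with both tumors none of the 4 passed.

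Endothelial-like cells were the exception for Atf3, since the tumors agreed there. Its level was 52.1 and 160.2 scaled CPM in Prepuberty, 284 and 274 in DCIS, and 429.6 and 489 in Tumor, with no overlap between the states. Atf3 rose by 2.11 between Prepuberty and Tumor (SE 0.47, adjusted p = 0.0219). The call was lost without Prepuberty 1 (log2 difference 1.504, adjusted p = 0.0501), without Tumor 1 (0.0778), without Tumor 2 (0.0769), with clusters made without integration (1.15, adjusted p = 0.413) and with a doublet share 2 times larger (1.18, adjusted p = 0.410). Between DCIS and Tumor the log2 difference was 0.72 (SE 0.45, adjusted p = 0.313).

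Egr1, a zinc finger protein induced with Fos by serum and ERK, was at 96.5 and 92.1 scaled CPM in DCIS and 503 and 192 in Tumor in fibroblast-like cells, after 49.7 and 106 in Prepuberty. The tumors lay above all gland libraries, and the log2 difference to DCIS was 1.88 (SE 0.56, adjusted p = 0.066). In endothelial-like cells Egr1 was at 63.4 and 238 in Prepuberty, 199 and 152 in DCIS, and 316 and 359.5 in Tumor (log2 difference to DCIS 0.95, SE 0.52, adjusted p = 0.251). Ier2, a short nuclear protein of the early response, gave 57.3 and 38.9 scaled CPM in DCIS and 154 and 110.2 in Tumor in macrophage-like cells (log2 difference 1.46, SE 0.46, adjusted p = 0.0800). Both genes lay above DCIS in each tumor in these classes, and neither passed the test.

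The Jun genes, which supply the obligate partner of Fos proteins, gave no call in any class or comparison. Jun was at 325 and 426 scaled CPM in DCIS and 593 and 250.3 in Tumor in epithelial-like cells, with the tumors on either side of DCIS. In endothelial-like cells it was at 962 and 871 in DCIS and 681 and 636 in Tumor (log2 difference -0.47, SE 0.39, adjusted p = 0.437). Junb ran from 337 to 1511 CPM on the joint scale over all classes and libraries, and Jund from 69.0 to 633. Between DCIS and Tumor the log2 differences of Jund lay between -0.12 and 0.31 over the 5 classes, with SE of 0.36 to 0.55.

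**Figure D4:**
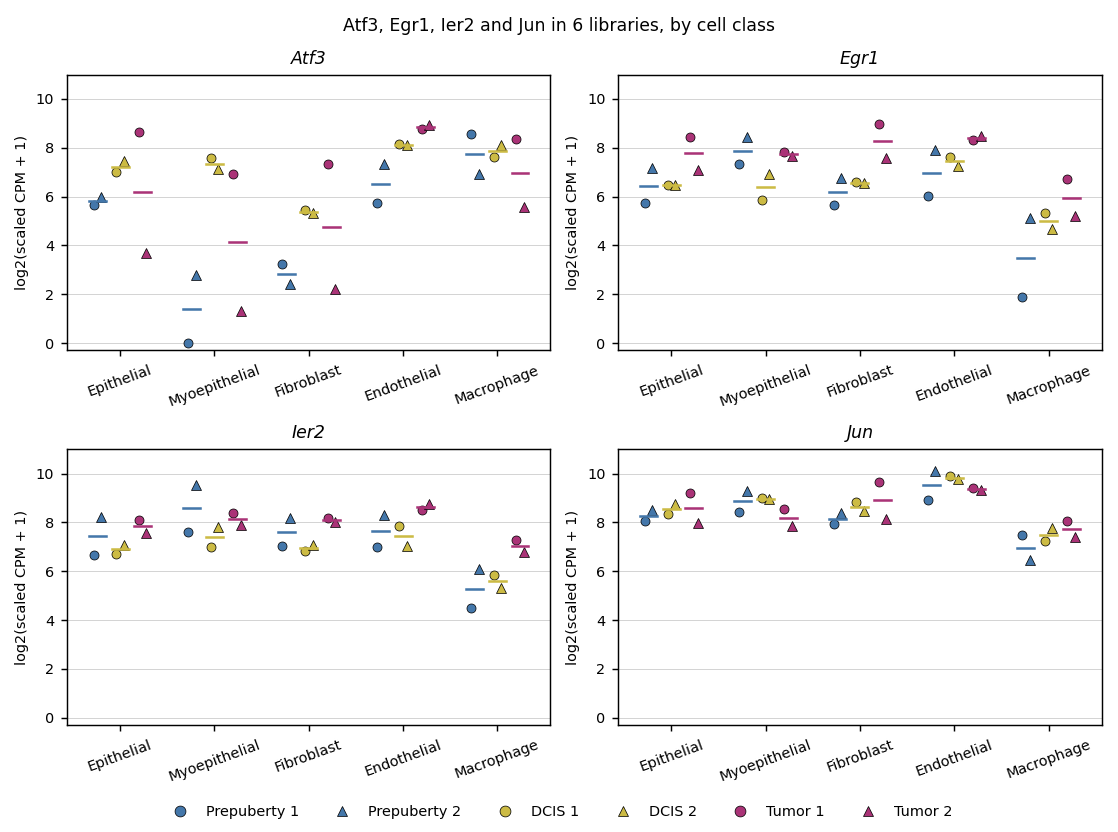
Levels of Atf3, Egr1, Ier2 and Jun as log2(scaled CPM + 1) in 5 cell classes and 6 libraries, drawn as for the Fos family. Atf3 in Tumor 2 is at 1.51 to 46.6 scaled CPM in 4 classes and at 489 in endothelial-like cells, while Jun stays within 85.96 to 1099 in all.

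Between Prepuberty and DCIS no member passed the test in any class, in 48 tests by edgeR, where 0.0197% of all gene-by-class tests passed. In these tests 9 had an unadjusted p under 0.05, where 11.4% of all did, DESeq2 called 1, and the DCIS libraries lay above both Prepuberty libraries in 11 and below in 2, against 25.9% and 25.3% of all tests. Atf3 in myoepithelial-like cells had the largest difference, with 0 and 5.98 scaled CPM in Prepuberty and 192 and 138 in DCIS. Its 5 UMIs in Prepuberty stood against 706 in DCIS, and the log2 difference was 5.47 (SE 1.36, adjusted p = 0.240). The 0 of Prepuberty 1 allows up to 5.87 scaled CPM. Fosl2 was higher in DCIS without overlap in 4 of 5 classes, all but epithelial-like cells, with log2 differences of 0.84 to 2.86 there and adjusted p of 0.168 to 0.509.

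Between Prepuberty and Tumor 5 of 48 member tests passed, 10.4%, against 8.45% of all tests. Rapid genes gave 3 increases and no decrease, and the FRA genes gave an increase and a decrease. The Tumor libraries lay above both Prepuberty libraries in 14 tests and below in 3, against 27.7% and 26.4% of all. Without Tumor 1 the rapid genes had a positive change in 17 of 40 tests, against 30 of 40 with both tumors. In macrophage-like cells Fos rose by 2.67 (SE 0.44, adjusted p = 0.0058) and Fosb by 6.73 (SE 1.13, adjusted p = 0.0068). The Fosb value rests on 1 UMI in the Prepuberty libraries against 652 in Tumor, a ratio of 160 (exact 95% interval 28.6 to 6316), and the 0 of Prepuberty 2 allows up to 5.997 scaled CPM. Without Prepuberty 2 both calls were lost (Fosb 5.61, adjusted p = 0.0652, and Fos 2.41, adjusted p = 0.0683). The other calls were Atf3 and Fosl1 in endothelial-like cells and Fosl2 in macrophage-like cells, given above. This comparison shares its Tumor libraries with that between DCIS and Tumor, and its Prepuberty libraries with that between Prepuberty and DCIS.

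Whether a gene changed differently in different classes was tested within libraries, as the change from DCIS to Tumor in a class minus that in epithelial-like cells. Of 40 such differences 5 passed, 12.5%, against 7.10% of all. They belonged to Fosl1 and Fosb, and the count holds the macrophage-like call of Fosl1, which is not read as a change below. For Fosl1 the difference was -6.81 in endothelial-like cells (SE 0.88, adjusted p = 0.00021), -3.95 in fibroblast-like cells (SE 0.65, adjusted p = 0.00070) and -3.65 in macrophage-like cells (SE 1.01, adjusted p = 0.0390). In myoepithelial-like cells it was -2.90 (SE 0.89, adjusted p = 0.0557). In these last 2 classes Fosl1 did not pass the filter of the class itself and entered the joint fit through the classes where it is high, and the macrophage-like side rests on 5 and 7 UMIs in DCIS and 16 and 2 in Tumor, so that this call is not read as a change in macrophage-like cells. The endothelial-like and fibroblast-like differences of Fosl1 were kept in every alternative setting run, Tumor 1 left out included.

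For Fosb the difference was -2.86 in myoepithelial-like cells (SE 0.55, adjusted p = 0.0037) and -1.97 in endothelial-like cells (SE 0.54, adjusted p = 0.0410). The change of Fosb itself did not pass the test in either of these classes, as given above. The myoepithelial-like values of the tumors rest on 32 and 49 cells and exist only with integration, as given for Fosl2. The myoepithelial-like difference was lost without DCIS 1 or DCIS 2 (adjusted p = 0.0898 and 0.0538). The endothelial-like difference was lost without DCIS 1, DCIS 2, Tumor 1 or Tumor 2 (adjusted p = 0.231, 0.264, 0.0857 and 0.0951), without TMM scaling (0.0525) and with clusters made without integration (0.0625), and that of Fosl1 in macrophage-like cells without DCIS 1, DCIS 2 or Tumor 1 (0.173, 0.332 and 0.0904). For Fos, Jun, Junb, Jund, Egr1, Atf3, Fosl2 and Ier2 no difference passed in the 4 classes, with log2 differences from -1.72 to 2.39 that were both of Atf3.

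**Figure D5:**
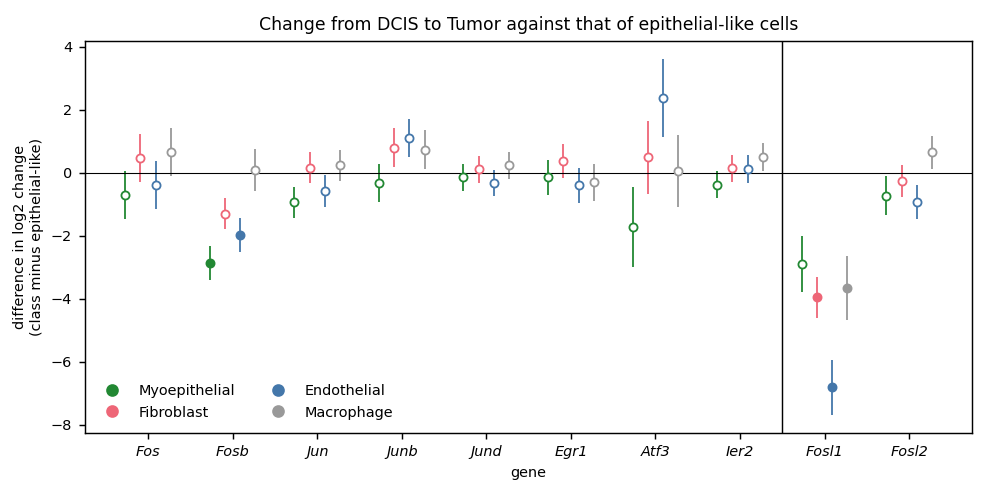
Difference between the log2 change from DCIS to Tumor in a class and that in epithelial-like cells, for each gene (x axis) and 4 classes (colours). Bars are 1 SE and filled points have an adjusted p under 0.05. Fosl1 lies at -6.81 in endothelial-like cells, and the 4 points of Jund lie between -0.32 and 0.24.

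Across classes the order of levels was gene specific. Of 100 member-by-pair tests within libraries 38 passed, 38.0%, against 39.2% of all genes, so that the members as a group differed between classes about as often as any gene. Fosl1 was highest in fibroblast-like and endothelial-like cells, with medians of 91.9 and 73.8 CPM on the joint scale, whose difference did not pass the test (adjusted p = 0.490). Both exceeded epithelial-like cells (median 6.71), fibroblast-like cells by 2.97 on the log2 scale (SE 0.68, adjusted p = 0.00085, higher in 6 of 6 libraries) and endothelial-like cells by 2.41 (SE 0.72, adjusted p = 0.0078, in 5 of 6). Epithelial-like, macrophage-like and myoepithelial-like cells gave no call between neighbours in the order (adjusted p = 0.251 and 0.843).

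Fosl2 had its highest median in endothelial-like cells, 135 CPM on the joint scale, with a range of 35.5 to 257. It was lowest in myoepithelial-like cells, with a median of 24.5. The endothelial-like level exceeded the fibroblast-like one (log2 difference 1.17, SE 0.39, adjusted p = 0.0203, in 5 of 6 libraries), while its difference to macrophage-like cells did not pass the test (adjusted p = 0.0573). The myoepithelial-like level against the epithelial-like (adjusted p = 0.212) or fibroblast-like one (0.0548) did not pass it either, and the neighbours in the middle of the order, fibroblast-like with epithelial-like cells and epithelial-like with macrophage-like cells, did not pass the test (adjusted p = 0.567 and 0.338). Jun was also highest in endothelial-like cells (median 671), above fibroblast-like cells (log2 difference 0.72, SE 0.25, adjusted p = 0.0251). Jund was highest in epithelial-like and endothelial-like cells (medians 290 and 326), above the other 3 classes (adjusted p = 0.0106 to the next). Egr1 was lowest in macrophage-like cells, with a median of 43.1 against 102 to 191 in the other classes (adjusted p = 0.0025 to the next), and so was Ier2 (median 79.5, adjusted p = 0.0135).

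Atf3 was highest in macrophage-like and endothelial-like cells, with medians of 313 and 245 CPM on the joint scale, and low in fibroblast-like and myoepithelial-like cells (25.2 and 58.5). The endothelial-like level against the epithelial-like one (median 87.6) did not pass the test (adjusted p = 0.0599), nor did the epithelial-like against the myoepithelial-like one (0.405). Its range in myoepithelial-like cells ran from 0 to 189. Fos and Junb gave no call in 10 pairs each. Their medians over the libraries of a class ran from 166 to 305 for Fos and from 473 to 626 for Junb, and Fos spanned 61.0 to 1288 over all libraries and classes. Fosb gave 1, fibroblast-like above epithelial-like cells (log2 difference 1.33, SE 0.43, adjusted p = 0.0132).

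As a description, the library sums of the 5 classes (30 sums, in which sums of a library share their handling and sums of a class share their cell type) were used to find the genes most like Fos and Fosl1 among 8097 genes. The gene most like Fos was Fosb (Pearson r = 0.79), followed by Ndufs3 and Pmepa1 (both 0.71), with Junb at 0.66, Ier2 at 0.59 and Egr1 at 0.58. Among the 3 genes most like Fosl1 were Ebf1 (0.81) and Cacybp (0.80). Fosl1 was at 0.34 with Fosl2, below its values with the rapid genes Jun (0.47) and Egr1 (0.36). With the other rapid genes it was at 0.30 (Fosb), 0.28 (Jund), 0.28 (Ier2), -0.005 (Atf3), -0.04 (Junb) and -0.08 (Fos).

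Other immediate early genes were listed beside the members. Of 27, 1 rose and 4 fell between DCIS and Tumor in epithelial-like cells, of 27 tested (median log2 change -0.21, against 0.09 over all genes). Egr3, a relative of Egr1, rose by 4.14 (SE 0.61, adjusted p = 0.0326), from 1.05 and 1.17 scaled CPM in DCIS to 28.5 and 10.9 in Tumor. Gadd45b, a stress-induced regulator of growth arrest, fell by 3.77 (SE 0.34, adjusted p = 0.0142), from 606 and 727 to 57.6 and 39.9. In myoepithelial-like cells 11 of 24 fell and none rose (median -1.26, against 0.04), among them Ctgf (fell by 3.58, SE 0.47, adjusted p = 0.0016) and Zfp36 (fell by 3.17, SE 0.69, adjusted p = 0.0113). In endothelial-like cells 4 of 26 fell and none rose (median -0.31, against -0.02). Fibroblast-like and macrophage-like cells gave 1 call each, a decrease, while their medians were positive (0.36 against 0.12, and 0.19 against 0.06 over all genes). Between DCIS and Tumor the share of all genes that passed was 2.75% in epithelial-like, 20.2% in myoepithelial-like, 11.6% in fibroblast-like, 13.7% in endothelial-like and 6.56% in macrophage-like cells.

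The remaining bZIP partners gave changes of single genes. Mafg, a small Maf protein, fell in fibroblast-like cells by 1.89 (SE 0.32, adjusted p = 0.0169), in endothelial-like cells by 1.77 (SE 0.28, adjusted p = 0.0066) and in macrophage-like cells by 1.31 (SE 0.34, adjusted p = 0.0452). Maf rose by 4.46 in epithelial-like cells (SE 0.69, adjusted p = 0.0344), from 4.94 and 1.10 scaled CPM in DCIS to 58.8 and 75.5 in Tumor. In all, 1 of 9 rose in epithelial-like cells, 2 rose and 2 fell of 7 in myoepithelial-like cells, 1 of 10 fell in fibroblast-like cells, 1 rose and 2 fell of 8 in endothelial-like cells and 1 of 10 fell in macrophage-like cells. The genes that feed back on or report ERK activity gave only increases among their calls between DCIS and Tumor, 2 of 7 in myoepithelial-like, 3 of 12 in fibroblast-like and 2 of 12 in endothelial-like cells, and none in epithelial-like (of 12) or macrophage-like cells (of 6). Phlda1 rose in endothelial-like cells by 1.76 (SE 0.40, adjusted p = 0.0230), where Fosl1 fell, and Dusp6 rose in fibroblast-like cells by 2.21 (SE 0.45, adjusted p = 0.0262).

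Of 11 AP-1 target genes, Mmp3, a matrix metalloproteinase, passed the test as a decrease in all 5 classes and Ccnd1, cyclin D1, rose in 4, all but macrophage-like cells. In fibroblast-like cells Mmp3 was at 2038 and 1949 scaled CPM in Prepuberty, 5939 and 6368 in DCIS, and 114 and 718 in Tumor, and fell by 3.88 between DCIS and Tumor (SE 0.81, adjusted p = 0.0268). In the other 4 classes Mmp3 was at 13.2 to 61.3 scaled CPM in the glands, and T cell-like cells, taken as a background for free RNA, gave 18.1 to 26.3 unscaled CPM from 1 to 4 UMIs in the 3 gland libraries with a value. Outside fibroblast-like cells these low levels are not read as expression. In endothelial-like cells Ccnd1 was at 20.5 and 2.80 in DCIS and 209 and 286 in Tumor, a rise of 4.42 (SE 0.66, adjusted p = 0.0053). Together 1 rose and 1 fell of 10 in epithelial-like cells, 2 and 2 of 6 in myoepithelial-like cells, 1 and 1 of 11 in fibroblast-like cells, 1 and 1 of 8 in endothelial-like cells, and 2 of 9 fell in macrophage-like cells.

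The heat shock genes gave only decreases among their calls. Between DCIS and Tumor 3, 5, 4, 9 and 2 of 10 fell in epithelial-like, myoepithelial-like, fibroblast-like, endothelial-like and macrophage-like cells, and Hspb1 fell in all 5. In epithelial-like cells the 10 genes summed to 5618 and 5512 scaled CPM in Prepuberty, 15781 and 16029 in DCIS, and 6508 and 4027 in Tumor. Their part in the changes of the AP-1 genes was not tested.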

How the data were processed

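Droplet single-cell RNA-seq libraries from 6 mammary samples were analysed. The authors made the deposited counts, whole UMI counts per gene and barcode, with Cell Ranger 3.0.2 (file headers), and mm10 is named in the submitters' processing notes. Barcodes with at least 200 genes and at most 10% mitochondrial UMIs were kept, and the cells with the highest doublet scores (a share set by the number of barcodes) were removed with scanpy 1.11.5. Cells were integrated and clustered with Seurat 5.3.0 (2000 variable genes without the listed immediate early genes, 20 dimensions, resolution 0.8). Classes needed 3 markers in at least 25% of a cluster's cells at 2-fold over the rest, limits set after the matrices were read. UMIs summed per class and library were tested with edgeR 4.0.16 (TMM, filterByExpr, quasi-likelihood F test, Benjamini-Hochberg over all genes, threshold 0.05). Changes and levels were compared between classes in a joint fit with library as a block. All 10 members were named, and of each other list at most the 2 called genes with the largest change per class and comparison. The members, lists and tests were chosen with earlier results of these data known. The tests between states and of differences in the change were run on simulated data, and those between pairs of classes were not scored there. Where a change was simulated, 2.53% to 9.77% of calls were false, with 9.71% in endothelial-like cells between DCIS and Tumor. DESeq2 1.42.0, other scalings, filters, clusterings and libraries left out were the alternatives. Intervals are exact binomial or Poisson ones. The 6 libraries held 28487419 to 56923557 UMIs in kept cells. Results for 2 other genes are not reported here.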

Additional observations from a re-analysis of the deposited data

Results flagged for a closer look

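The changes of 2 genes from DCIS to Tumor differed between cell classes by a test of the difference itself (edgeR, Benjamini-Hochberg adjustment, 2 libraries per state). For Fosl1 the log2 change minus that in epithelial-like cells was -6.81 in endothelial-like cells (adjusted p = 0.00021), -3.95 in fibroblast-like cells (adjusted p = 0.00070) and -3.65 in macrophage-like cells (adjusted p = 0.0390). The last of these is not read as a change in macrophage-like cells, as given above. The macrophage-like value rests on 2 to 16 UMIs per library of DCIS and Tumor, from a gene that did not pass the filter of that class, and its call was lost without DCIS 1, DCIS 2 or Tumor 1 (adjusted p = 0.173, 0.332 and 0.0904). For Fosb the difference was -1.97 in endothelial-like cells (adjusted p = 0.0410) and -2.86 in myoepithelial-like cells (adjusted p = 0.0037). The tumors held 32 and 49 myoepithelial-like cells, of which 46.9% and 44.9% held a T antigen UMI. Without integration the myoepithelial-like cluster held no tumor cell, so that its difference could not be tested there. The endothelial-like call of Fosb was lost without DCIS 1, DCIS 2, Tumor 1 or Tumor 2 (adjusted p = 0.231, 0.264, 0.0857 and 0.0951), without TMM scaling (0.0525) and without integration (0.0625), and the myoepithelial-like one without DCIS 1 or DCIS 2 (0.0898 and 0.0538). The epithelial-like change of Fosl1, to which the others were set, was 3.16 with both tumors and 0.89 without Tumor 1.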

How the results depend on the processing

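Counts of member tests passed moved with the processing, from 7 between DCIS and Tumor, 5 between Prepuberty and Tumor, 0 between Prepuberty and DCIS, 5 differences between classes in the change and 38 between pairs of classes. DESeq2 gave 11 between Prepuberty and Tumor and 1 between Prepuberty and DCIS. Without TMM factors the first 2 counts were 14 and 8. Without the filter on low counts they were 19 and 21, with 6 between Prepuberty and DCIS and 9 differences in the change. With only the 4 libraries compared there was 1 between Prepuberty and DCIS. Without integration, where the myoepithelial-like cluster held no tumor cell and the class was not tested, the counts were 3, 3, 3 differences in the change and 25 of 60 pairs, where 25 of the same 60 passed with integration and 23 in both. Leaving out a library gave 1 to 12 between DCIS and Tumor, the lowest without DCIS 1 or DCIS 2 and the highest without Tumor 2, with 4 without either Prepuberty library. It gave 4 to 12 between Prepuberty and Tumor, 0 to 1 between Prepuberty and DCIS, 2 to 5 differences in the change and 30 to 41 pairs. A state left with 1 library was assumed to vary like the others. Fosb in endothelial-like cells turned from a log2 difference of 1.93 between Prepuberty and Tumor to -0.55 without Tumor 1 (3.79 without Prepuberty 2, adjusted p = 0.0357). Apart from these constructions the cause was not tested.

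Libraries of different states share the numbers 1 and 2. The deviations of same-numbered libraries correlated at -0.06 to 0.36 over the 5 classes and did not all exceed 0.1, so that the numbers were not taken as a pairing. Those between Prepuberty and DCIS ran from 0.11 to 0.36 over the classes. In fibroblast-like cells the correlations were 0.36, 0.20 and 0.15, all above 0.1. With the replicate number as a block 6 member tests passed between DCIS and Tumor, 6 between Prepuberty and Tumor and 0 between Prepuberty and DCIS. The tumor values of endothelial-like and myoepithelial-like cells rest on 77 and 32, and 32 and 49 cells, which limits the precision of low genes such as Fosl1.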

Other observations

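Smaller classes were not tested and are given in unscaled CPM. In Schwann-like cells Atf3 was at 283 and 299 CPM in Prepuberty and 1515 and 531 in DCIS, and Fos at 554 and 331 in Prepuberty and 1515 and 743 in DCIS. In pericyte or smooth muscle-like cells of Tumor 1, 21 in number, Fos was at 2909.6 CPM and Fosb at 777. In T cell-like cells, which serve above as the background for free RNA, Fos was at 45.4 CPM in Prepuberty 2 (10 UMIs), 35.1 and 18.1 in DCIS (4 UMIs and 1 UMI), and 135 and 159 in Tumor (58 and 50 UMIs).

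Cluster 10, led by Npy, Acan and Wnt10a, carried under 3 markers of any class and stayed unnamed, with 489 and 385 of its cells in the tumors. Its Fosl1 level was 74.8 and 101 CPM in Prepuberty, 265 in DCIS 2, 86.5 in Tumor 1 and 17.5 in Tumor 2. Its Atf3 level was 117 and 547.5 in Prepuberty, 599 in DCIS 2, 297 in Tumor 1 and 11.2 in Tumor 2. DCIS 1 held 6 cells and gave no value. Both genes were lower in Tumor 2 than in every other library with a value.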
